A study of Mus musculus with 15 samples.

Results

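The probes placed on mouse chromosome 6 (Chr6) were examined in array comparative genomic hybridization data of hepatocellular carcinomas (HCC) and unaffected livers. Every non-control probe that the array design places on Chr6 was a member, which gave 2394 distinct probes of 42404 in all, or 5.88% of the 40726 autosomal probes. Of these, 1986 carried a gene name of the array design, with 1149 different names, and the other 408 were named by position only. They ran from position 3274714 to 149503634, a median of 26 kb apart, with the widest gap, 2947 kb, between positions 73419355 and 76366021.

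The tissues came from 3 mice of a strain whose label names a background with C57BL/6 and the alleles Mad2flox, p53flox and AlbuminCre. Mouse 3151, a female of 16.4 months with the genotype Mad2(f/f) p53(f/+), gave HCC 1, HCC 2 and unaffected liver 1. Mouse 3760, a male of 13.8 months with the genotype Mad2(f/f) p53(f/f), gave HCC 3 and unaffected liver 2. Mouse 4033, a male of 13.9 months with that same genotype, gave HCC 4, HCC 5 and unaffected liver 3. Mad2 and p53 are older names of Mad2l1 and Trp53. All 8 tissues therefore carried floxed Mad2l1 and the Albumin-Cre transgene, and no tissue of a mouse without them was hybridized except as reference. Albumin-Cre acts in hepatocytes, while a liver or a tumour also holds other cells. The reference was normal liver DNA of another mouse of that background, without the alleles by its label, of the sex opposite to the tissue. Mouse 3151 thus differed from the others in sex, age, Trp53 genotype and reference, and these cannot be told apart. HCC 3, HCC 5 and livers 2 and 3 were scanned on day 1, and HCC 4 and all tissues of mouse 3151 on day 2, so that among the other mice only HCC 4 shared a scan day with mouse 3151. HCC 1 and HCC 2 had a slide of their own, and liver 1 shared one with HCC 4. The 15 arrays covered both dye orientations for 7 tissues and the forward orientation for HCC 3.

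In comparative genomic hybridization, a sample and a reference genome carry different dyes and bind to the same probes, so that the log2 ratio of tissue over reference follows the relative copy number. Mad2l1 encodes a protein of the spindle assembly checkpoint, which delays anaphase until every chromosome is attached to the spindle, and cells that lack the checkpoint gain and lose whole chromosomes when they divide. Besides Mad2l1, Chr6 carries Met, which encodes the receptor of hepatocyte growth factor, and Braf, which encodes a kinase of the pathway downstream of such receptors. In DNA of a whole tissue, a change in fewer cells and a smaller change in each cell cannot be told apart. A level below is the mean log2 ratio of tissue over reference over the named probes, on arrays whose autosomal median was set to 0.

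The Chr6 probes on which most of the results below turn are 60 bases long, except the one of Etv6, and are printed as the array design gives them. The probes of Mad2l1, of the vomeronasal receptor gene V1rc15 next to it and of Met come first. They are followed by 6 probes whose log2 ratio differed most between the 3 mice among those with all signals well above background, 1 for each region described below that had such a probe. Positions are those of the array design, which names neither the genome build nor the strand.
Mad2l1, chr6:66489958-66490017: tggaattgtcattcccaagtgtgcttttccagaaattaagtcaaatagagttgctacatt
V1rc15, chr6:66502263-66502322: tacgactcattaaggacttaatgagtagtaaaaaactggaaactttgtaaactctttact
Met, chr6:17442331-17442390: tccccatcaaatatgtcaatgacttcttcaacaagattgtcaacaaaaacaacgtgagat
Met, chr6:17476371-17476430: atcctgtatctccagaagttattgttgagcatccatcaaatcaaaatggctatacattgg
Met, chr6:17523589-17523648: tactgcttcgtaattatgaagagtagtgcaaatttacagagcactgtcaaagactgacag
AK035031, chr6:53340112-53340171: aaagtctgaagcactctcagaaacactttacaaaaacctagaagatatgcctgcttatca
unnamed probe, chr6:57961817-57961876: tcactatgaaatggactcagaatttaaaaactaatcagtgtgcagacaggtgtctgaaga
AK027905, chr6:101731684-101731743: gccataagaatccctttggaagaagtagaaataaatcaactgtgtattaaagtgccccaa
Slc25a18, chr6:120738466-120738525: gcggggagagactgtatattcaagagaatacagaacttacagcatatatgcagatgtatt
Klra22, chr6:130146698-130146757: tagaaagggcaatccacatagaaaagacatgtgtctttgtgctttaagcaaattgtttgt
Etv6, chr6:134137942-134137999: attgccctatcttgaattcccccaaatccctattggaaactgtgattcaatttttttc

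Because Mad2l1 was the targeted gene, its probe was examined first. The array carried 1 probe for it. Cre removes only a part of the gene, and whether this probe lies in that part was not checked here, so that its values need not follow the deletion. Its signal was well above background in both dyes on all 15 arrays. HCC 1 to HCC 5 gave log2 ratios of -1.22, -0.71, 0.076, 0.53 and 0.59 at this probe. Livers 1 to 3, the unaffected livers, gave 0.012, 0.36 and 0.69. The probe was thus below the reference in the tumours of mouse 3151 alone, although all tissues were labelled as floxed for Mad2l1. In liver 1 and HCC 3 it was close to the reference, and in HCC 4, HCC 5 and livers 2 and 3 above it. Names of tissues and genotypes below are those of the labels. The 5 HCC averaged -0.15 ± 0.80 (SD) and the 3 livers 0.35 ± 0.34 (SD), and this difference of -0.50 did not exceed the spread between tissues (exact permutation test over 56 splits, two-sided p = 0.357, smallest possible p = 0.0179).

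The low values of HCC 1 and HCC 2 were seen in both dye orientations, with -0.97 and -1.48 in HCC 1 and -0.65 and -0.78 in HCC 2. So were the high values of HCC 5, 0.73 and 0.45, of liver 3, 0.71 and 0.67, and of liver 2, 0.44 and 0.28. Ranked from the lowest among the 2394 Chr6 probes of the same tissue, the Mad2l1 probe was number 5 in HCC 1 and number 12 in HCC 2. Ranked from the highest, it was number 8 in HCC 5, number 21 in liver 2 and number 10 in liver 3. Each HCC was below the liver of its own mouse at this probe, with differences of -1.24, -0.73, -0.28, -0.16 and -0.10 for HCC 1 to HCC 5. After the median of all Chr6 probes of each tissue was subtracted, these differences were -1.57, -1.09, -0.22, -0.48 and 0.24, so that in HCC 5 the direction turned.

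Since the whole chromosome was shifted in some tumours, the Mad2l1 probe was also set against its surroundings. After the median of all Chr6 probes of the tissue was subtracted, it lay at -1.53, -1.04, 0.12, 0.20 and 0.91 in HCC 1 to HCC 5, and at 0.042, 0.33 and 0.67 in livers 1 to 3. Its 20 nearest probes, 10 on each side, ranged on that scale from -0.87 to 0.20 in HCC 1 and from -0.77 to 0.44 in HCC 2, so that Mad2l1 lay below all of them. In HCC 5 the 20 probes ranged from -0.66 to 0.16, in liver 2 from -0.32 to 0.21 and in liver 3 from -0.21 to 0.32, and Mad2l1 lay above all of them. Relative to the median of these 20 probes, Mad2l1 averaged -0.26 ± 0.96 (SD) over the 5 HCC and 0.40 ± 0.32 (SD) over the 3 livers. This difference of -0.66 was not significant either (exact permutation test, two-sided p = 0.304). It was -0.87 among the tissues scanned on day 2 and -0.054 among those of day 1. With the slide as a block it was -0.016, but HCC 1 and HCC 2 shared no slide with a liver and did not contribute to that value. Without HCC 1 the difference was -0.35. Over all tissues, with the mouse as a block that pairs the tissues of one animal, it was -0.63 (exact permutation p = 0.167, smallest possible p = 0.0556).

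V1rc15, a pheromone receptor gene whose probe is 12.3 kb from that of Mad2l1, gave a pattern that was alike only in part. Its log2 ratio was -0.43, -0.44, 0.12, 0.59 and -0.20 in HCC 1 to HCC 5, and -0.62, -0.13 and 0.18 in livers 1 to 3. It was low in all 3 tissues of mouse 3151, the liver included, where Mad2l1 was at 0.012. After the Chr6 median was subtracted, V1rc15 lay at -0.74, -0.77, 0.16, 0.25 and 0.12 in HCC 1 to HCC 5. Livers 1 to 3 were at -0.59, -0.15 and 0.16 on that scale. V1rc15 thus had the same sign as Mad2l1 in all HCC and liver 3, and the opposite sign in livers 1 and 2.

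**Figure D1:**
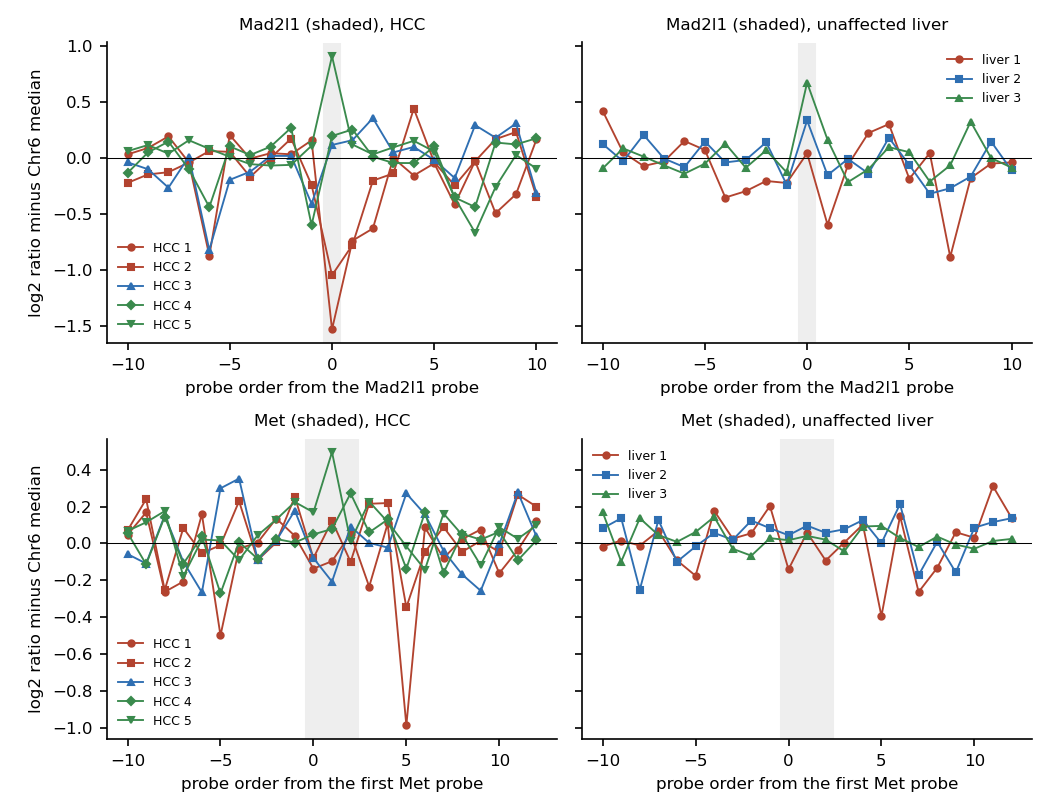
Log2 ratio of tissue over reference minus the Chr6 median of the tissue (vertical axis) for Mad2l1 and Met (shaded) and the 10 probes on each side, in order along Chr6 (horizontal axis), with 1 line per tissue, coloured by mouse. The Mad2l1 probe lies at -1.53 in HCC 1 and -1.04 in HCC 2 but at 0.91 in HCC 5 and 0.67 in liver 3. The 3 Met probes stay within the spread of their neighbours in the livers and in HCC 1 to HCC 3. The middle Met probe in HCC 5, at 0.49, and the third in HCC 4, at 0.27, lie above all their neighbours.

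To ask whether Chr6 as a whole was gained or lost, the mean log2 ratio of its 2394 probes was compared between tissues. The Chr6 level was 0.27 in HCC 1, 0.32 in HCC 2 and 0.31 in HCC 4, which had more Chr6 DNA than the reference, and -0.33 in HCC 5, which had less. It was -0.029 in HCC 3, close to the livers at -0.050 (liver 1), 0.020 (liver 2) and 0.019 (liver 3). The shifts were spread over the probes. In HCC 1, HCC 2 and HCC 4, 90.6%, 94.5% and 92.1% of the Chr6 probes were above 0, against 1.38% in HCC 5 and 41.6% in HCC 3, and 41.9%, 60.7% and 60.7% in the livers. The 2 dye orientations of a tissue differed by 0.0081 to 0.081. As a scale, the X chromosome, of which tissue and reference of opposite sex differ by 1 copy, had a mean absolute level of 0.89 in the livers. The absolute Chr6 levels of HCC 1, HCC 2, HCC 4 and HCC 5 were 0.303, 0.357, 0.344 and 0.370 of it. A gain of 1 autosomal copy shifts the log2 ratio less than the X difference does, so the fractions of HCC 1, HCC 2 and HCC 4 are not shares of such a gain.

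At the cut-off of 0.3 that the study used for a whole-chromosome event, Chr6 was past it in 3 of 5 HCC, with gains in HCC 2 and HCC 4 and a loss in HCC 5. Over all 19 autosomes, 35 of 95 levels in HCC were past it, or 36.8%. HCC 1 lay just below the cut-off and HCC 4 just above, so the count depends on small shifts. When each array was centred on the mode of its probe values, HCC 2 and HCC 5 passed, at 0.41 and -0.58, with HCC 1 at 0.16 and HCC 4 at 0.26. Relative to the liver of the same mouse, HCC 1, HCC 2 and HCC 5 passed, at 0.32, 0.37 and -0.35, with HCC 3 at -0.048 and HCC 4 at 0.29. In mouse 3151 both tumours were thus above their liver, whereas in mouse 4033 HCC 4 was above and HCC 5 below theirs.

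Gains and losses were both present among the tumours, and the groups were compared by their mean level. The 5 HCC averaged 0.11 ± 0.28 (SD) and the 3 livers -0.0038 ± 0.040 (SD), a difference of 0.11 with a standard error of 0.13 (limma over 19 autosomes, adjusted p = 0.645). By the same test 1 of 19 autosomes, 5.26%, was called, which was Chr15. Chr6 was neither among the autosomes on which all 5 HCC lay above all 3 livers, 15.8%, nor among those on which they lay below, 5.26%. The difference was -0.20 among the tissues of scan day 1 and 0.35 among those of day 2. With the slide as a block it was -0.014 (limma, adjusted p = 0.915), to which HCC 1 and HCC 2, without a liver on their slide, did not contribute. The levels of Chr6 were among the most variable between tumours. Their SD of 0.28 ranked 2 of 19, after that of Chr12 at 0.42.

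Regardless of sign, Chr6 departed from 0 by 0.25 ± 0.13 (SD) over the 5 HCC and by 0.030 ± 0.018 (SD) over the 3 livers. HCC 3, at 0.029, fell within the range of the livers, 0.019 to 0.050, and the other 4 HCC, from 0.27 to 0.33, were above it. The difference of 0.22 did not pass (exact permutation test, two-sided p = 0.0714). It was 0.16 within scan day 1 and 0.25 within day 2, and with scan day as a block the exact permutation p was 0.0417. Without HCC 3 the difference was 0.28 (exact permutation p = 0.0286), and without liver 1 it was 0.23 (exact permutation p = 0.0476). The groups overlapped only by HCC 3 and liver 1, so leaving out either one separates them. Each of these p-values is the smallest possible for its set and follows from the omission.

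**Figure D2:**
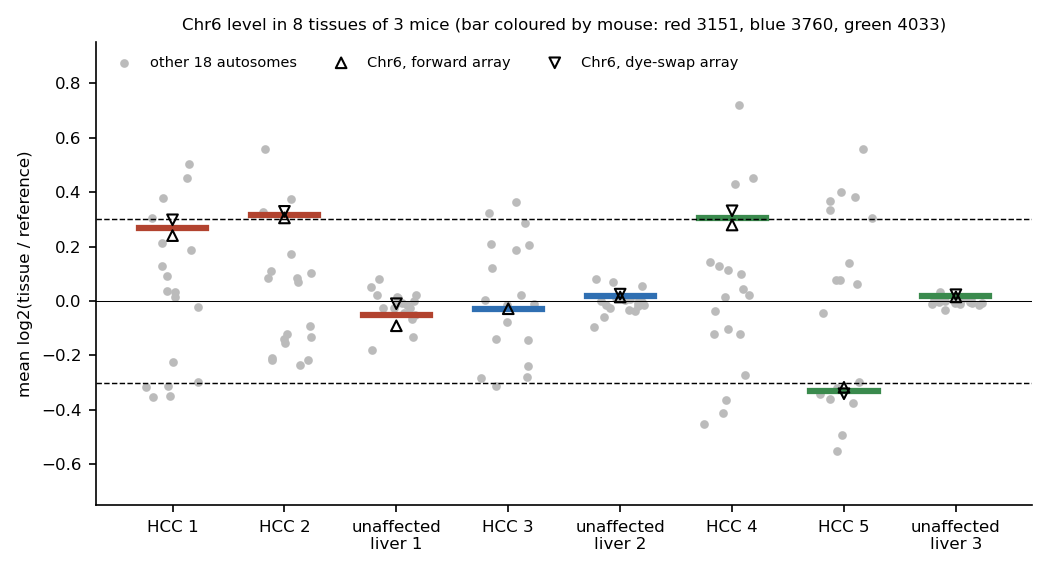
Mean log2 ratio of tissue over reference (vertical axis) of Chr6 in the 8 tissues (bars, coloured by mouse), with its value on the forward and the dye-swap array (triangles) and the other 18 autosomes of the tissue (grey points). Broken lines mark 0.3 and -0.3. Chr6 lies above 0.26 in HCC 1, HCC 2 and HCC 4, at -0.33 in HCC 5, and within 0.051 of 0 in HCC 3 and the livers.

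Chr15 was taken for comparison because it had the highest mean level in HCC in earlier results of these data. A lower level of Chr6 is thus in part given by that choice. Chr15 was above 0.3 in all 5 HCC, and Chr6 was lower in each tumour, though hardly so in HCC 2. The level of Chr15 minus that of Chr6 was 0.23, 0.0088, 0.39, 0.41 and 0.89 in HCC 1 to HCC 5, and 0.050, 0.062 and -0.0045 in livers 1 to 3. The mean of this quantity did not differ between groups beyond the spread (difference 0.35, exact permutation test, two-sided p = 0.107). The same quantity for Chr12 gave 0.18, 0.24, -0.25, -0.21 and -0.046 in the HCC and 0.063, -0.055 and -0.015 in the livers (difference -0.014, exact permutation p = 0.893).

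Next, it was asked whether the shifts covered the chromosome from end to end. Chr6 was divided into 15 windows of 10 Mb. All 15 were above 0 in HCC 1 (0.15 to 0.33), HCC 2 (0.20 to 0.36) and HCC 4 (0.23 to 0.37), and none in HCC 5 (-0.38 to -0.25). In HCC 3 the windows ran from -0.061 to 0.017. After the liver of the same mouse was subtracted, the windows of a tumour had an SD of only 0.020 to 0.025, and ran from 0.28 to 0.36 (HCC 1), 0.34 to 0.41 (HCC 2), -0.10 to -0.0096 (HCC 3), 0.26 to 0.33 (HCC 4) and -0.37 to -0.29 (HCC 5). Between HCC and liver none of the 15 windows was called by limma, against 10 of 251 autosomal windows, 3.98%, and none had an unadjusted p under 0.05, where 8.37% of the autosomal windows were higher and 2.79% lower in HCC. In none of the 15 did HCC and liver separate without overlap, as they did in 10.8% of the autosomal windows with HCC above and 6.77% with HCC below.

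The proximal and distal 1197 probes, which meet between positions 85868926 and 85873503, also had like levels. Distal minus proximal averaged -0.030 ± 0.017 (SD) over the 5 HCC and -0.027 ± 0.018 (SD) over the 3 livers, which differ by -0.0028 (exact permutation test, two-sided p = 0.839). The window from 130 to 140 Mb was the lowest of the 15 in HCC 1 (0.15), HCC 2 (0.20), HCC 4 (0.23), HCC 5 (-0.38) and also liver 1 (-0.17) and liver 3 (-0.024), but not in HCC 3 and liver 2.

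At the level of single probes, 0 of 2394 Chr6 probes were called between HCC and liver by limma, as were 0.0% of the 40726 autosomal probes. At an unadjusted p under 0.05, 7 Chr6 probes, 0.292%, were higher in HCC, against 5.34% of autosomal probes, and 0 were lower, against 2.06%. All 5 HCC were above all 3 livers at 3 Chr6 probes, 0.125%, against 5.3% of autosomal probes, and below them at 0, against 3.22%. Averaged by gene name, 0 of 1149 genes were called, as were 0.0% of 19973 names on all autosomes. At an unadjusted p under 0.05, 3 genes, 0.261%, were higher in HCC, against 5.75%, and 0 were lower, against 2.37%. At no Chr6 gene did the 5 HCC lie all above the livers, against 6.06% of names, or all below, against 3.72%. The median difference of HCC minus liver over the Chr6 genes was 0.11, against -0.0079 over all genes.

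**Figure D3:**
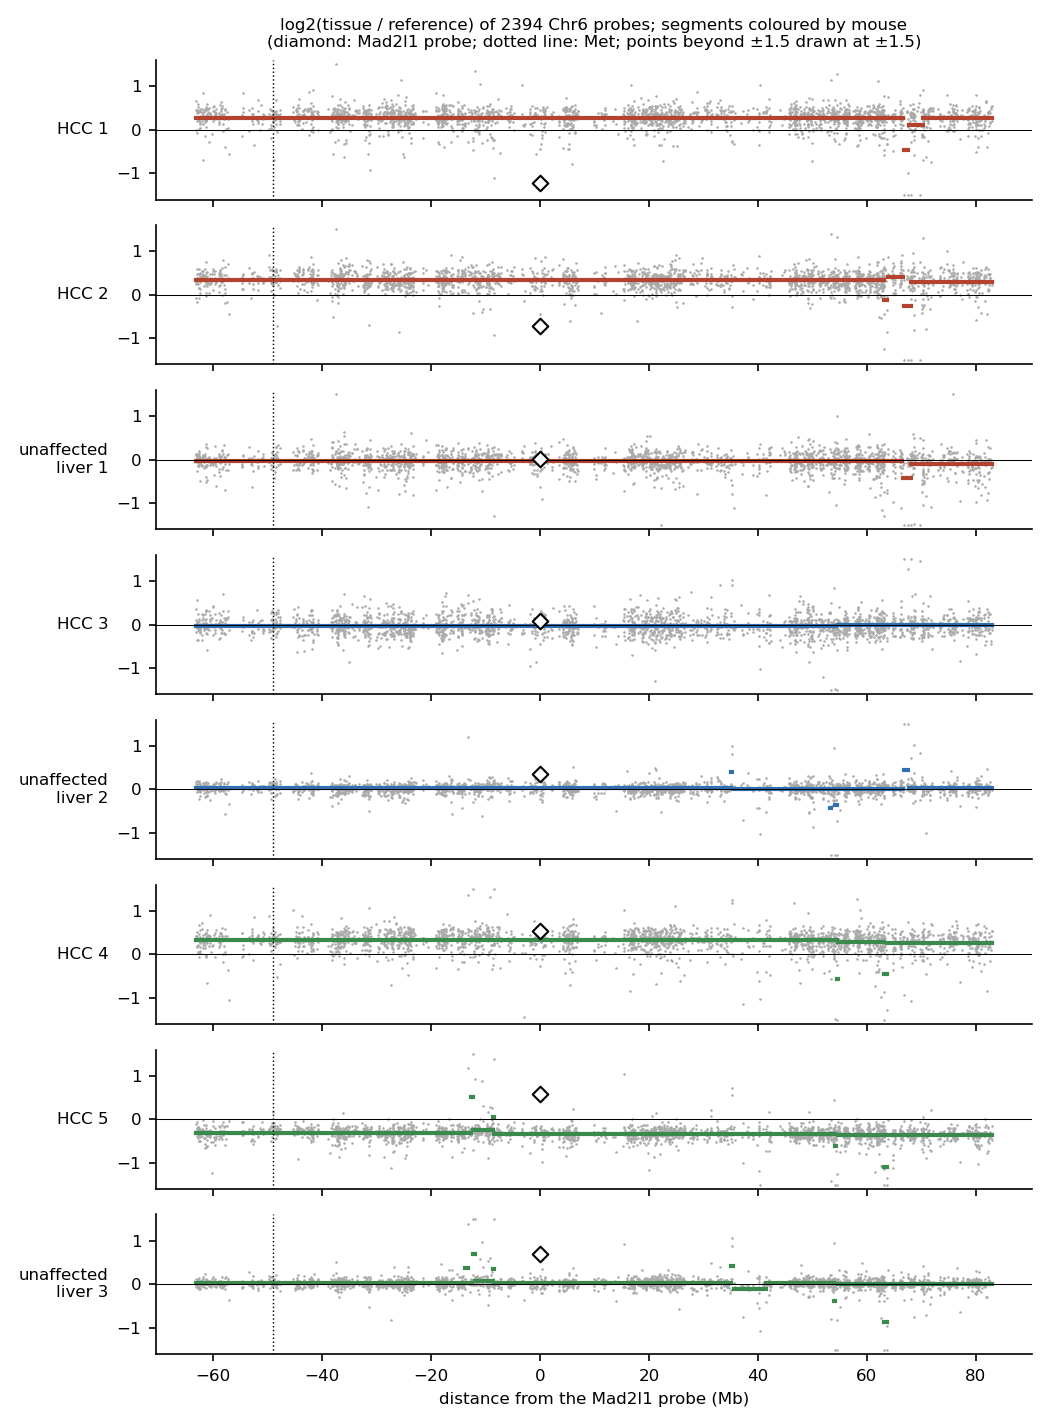
Log2 ratio of tissue over reference (vertical axis) of the 2394 Chr6 probes by distance from the Mad2l1 probe in Mb (horizontal axis), 1 panel per tissue, with the segments as lines coloured by mouse, the Mad2l1 probe as a diamond and Met as a dotted line. The probes are shifted along the whole chromosome in HCC 1, HCC 2, HCC 4 and HCC 5, and short segments depart from it in tumours and livers alike.

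Met, the growth factor receptor gene, was measured by 3 probes between positions 17442331 and 17523648. Averaged over them, HCC 1 to HCC 5 were at 0.24, 0.31, -0.11, 0.47 and -0.092, and livers 1 to 3 at -0.088, 0.090 and 0.046. Met was thus highest in HCC 4, and HCC and liver overlapped (difference 0.15, exact permutation test, two-sided p = 0.393). In HCC 4 the 3 probes were at 0.39, 0.42 and 0.61, whereas in HCC 5 they were at -0.15, 0.18 and -0.31. The middle probe, at position 17476371, was the only one of the 3 above 0 in HCC 5.

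Relative to the 20 nearest probes, Met was at -0.074, -0.061, -0.064, 0.11 and 0.17 in HCC 1 to HCC 5 and at -0.086, -0.013 and -0.00035 in livers 1 to 3. The 5 HCC averaged 0.017 ± 0.12 (SD) and the 3 livers -0.033 ± 0.047 (SD), and the difference of 0.050 did not exceed the spread (exact permutation test, two-sided p = 0.536). No segment of Chr6 in any tissue that departed from the rest of the chromosome included Met. A segment needed at least 5 probes, more than the 3 of Met, so a change limited to Met could have been missed.

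The other genes of Chr6 with known roles were then followed as lists. In each of the 9 lists below, 0 members were called by limma and 0 had an unadjusted p under 0.05. At no member did the 5 HCC lie all above or all below the 3 livers. Over all autosomal genes the shares were 0.0% called, and 5.75% higher and 2.37% lower at an unadjusted p under 0.05. The 5 HCC lay all above the livers at 6.06% of these genes and all below at 3.72%. Median differences of HCC minus liver ran from 0.072 to 0.18 over the lists.

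Of growth factor receptor and RAS pathway genes, 10 of 10 were on the array, with a median difference of 0.13 (0.012 to 0.16). Braf, which encodes a kinase activated by RAS, had 7 probes, with a mean log2 ratio of 0.37, 0.38, -0.15, 0.49 and -0.32 in HCC 1 to HCC 5 and 0.015 to 0.038 in the livers. Braf was thus above the livers in HCC 1, HCC 2 and HCC 4 and below them in HCC 3 and HCC 5.

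Of the cell cycle genes 9 of 10 were on the array, with a median difference of 0.11 and a range from -0.50, which is Mad2l1, to 0.22, which is Mcm2. Mcm2, which encodes a subunit of the replicative helicase, was at 0.36, 0.54, 0.0015, 0.42 and -0.24 in HCC 1 to HCC 5 and -0.14, 0.041 and 0.078 in livers 1 to 3. Cdkn1b, the gene of the cyclin-dependent kinase inhibitor p27, was at 0.29, 0.091, -0.18, 0.57 and -0.45 in the HCC and -0.36, -0.033 and -0.031 in the livers. Ccnd2, which encodes cyclin D2, was at 0.33, 0.21, -0.14, 0.31 and -0.40 in the HCC and -0.045 to -0.0065 in the livers.

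Tumour suppressor and DNA repair genes, 10 of 10, had a median difference of 0.14 (-0.053 to 0.31). The range over this list was set by Etv6 and Rad52, which lie in regions described below, and for 1 of the 2 Rad52 probes the tissue signal was not well above background on 3 arrays. Fancd2, a gene of DNA crosslink repair, followed the chromosome instead, with 0.43, 0.39, -0.051, 0.40 and -0.34 in HCC 1 to HCC 5 and -0.041, 0.090 and 0.028 in livers 1 to 3. Of the chromatin genes 6 of 8 were measured, with a median difference of 0.18. Ezh2, the gene of a histone H3 methyltransferase, was at 0.20, 0.32, -0.027, 0.39 and -0.30 in the HCC and -0.30, 0.062 and 0.052 in the livers.

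Of the genes for hepatocyte functions and metabolism 24 of 26 were measured, with a median difference of 0.14. Their mean was 0.31, 0.30, -0.016, 0.31 and -0.32 in HCC 1 to HCC 5 and -0.063, -0.0057 and 0.021 in livers 1 to 3, and the differences of HCC minus liver ranged from 0.037 to 0.21. Fabp1, which encodes the liver fatty acid binding protein, was at 0.43, 0.26, 0.054, 0.083 and -0.31 in the HCC and -0.091 to 0.11 in the livers. Gapdh, a glycolytic enzyme gene, was at 0.23, 0.27, -0.034, 0.30 and -0.17 in the HCC and -0.046 to 0.051 in the livers.

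The imprinted genes (7 of 10 on the array, median difference 0.072) and the genes of the Hoxa cluster (11 of 12, 0.17) gave list means of the same signs as Chr6 in HCC 1, HCC 2, HCC 4 and HCC 5. The genes of natural killer cell receptors and C-type lectins, 32 of 32, had a median difference of 0.093 and ranged from -0.26 to 0.31. At the lower end was Klrb1c, the gene of the NK1.1 antigen, whose 1 probe was below 0 in all 5 HCC, at -0.36, -0.50, -0.20, -0.34 and -0.79, and at -0.22, 0.084 and -0.39 in livers 1 to 3. The chemosensory receptor genes, 36 of 36 with 1 probe each, had a median difference of 0.090 (-0.046 to 0.42). No probe name matched the immunoglobulin kappa and T cell receptor beta genes.

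**Figure D4:**
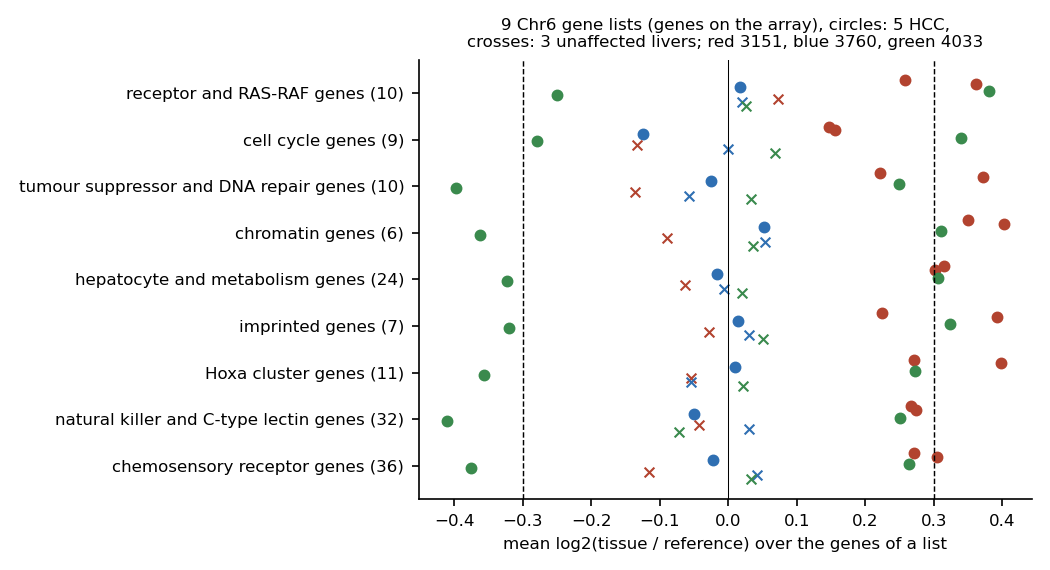
Mean log2 ratio of tissue over reference (horizontal axis) over the genes of 9 Chr6 gene lists (rows, with the number of genes on the array) in the 5 HCC (circles) and 3 unaffected livers (crosses), coloured by mouse. In each list HCC 5 lies lowest, from -0.41 to -0.25, and HCC 1, HCC 2 and HCC 4 lie above HCC 3 and the livers.

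Of the genes with at least 2 probes, those with the largest difference of HCC minus liver after the Chr6 median was subtracted are given as a description, since this difference chose them. Higher in HCC were Wnt7a, which encodes a WNT ligand, by 0.35, AY512915 by 0.27 and Cntn3, a neural adhesion gene, by 0.20. Lower were Pyroxd1 by -0.35, AK035031 by -0.24, and Hebp1 and Styk1 by -0.21 each. Mansc1 and the chloride channel gene Cftr were also among them, but each had a probe not well above background, in the tissue on 10 and 5 arrays and in the reference on 7 and 4, so that no size is given. Wnt7a was at 0.29, 0.67, 0.46, 0.66 and -0.30 in HCC 1 to HCC 5 and -0.42, -0.044 and 0.12 in livers 1 to 3. Pyroxd1 was at 0.92 in liver 1 but at 0.072 and 0.054 in livers 2 and 3, so that its difference came from a single liver. Liver 1 also stood apart at AY512915, at -0.52 against 0.0028 and -0.064 in livers 2 and 3. At Cntn3 it was at -0.60 against 0.069 and -0.015. The differences of AY512915 and Cntn3 thus came in large part from liver 1.

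Segments that departed from the rest of Chr6 were sought in each tissue by optimal partitioning. The number of breakpoints was 3, 4, 2, 4 and 9 in HCC 1 to HCC 5 and 2, 8 and 15 in livers 1 to 3, or 4.4 ± 2.7 (SD) over the 5 HCC and 8.3 ± 6.5 (SD) over the 3 livers, with no difference beyond the spread (-3.9, exact permutation test, two-sided p = 0.357). The 3 tissues with the most breakpoints, liver 3, HCC 5 and liver 2, were also the 3 with the lowest probe noise, 0.084, 0.11 and 0.091, against 0.17 to 0.20 in the others. With noise made equal across tissues, the difference was 0.87 (exact permutation p = 0.589).

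Segments at least 0.3 from the Chr6 median fell in 8 regions, each called in 1 to 5 of the 8 tissues. Along Chr6, region 1 held Jazf1 and AK035031 (chr6:52806760-53360379), region 2 Chn2, Prr15 and Scrn1 (chr6:53815053-54505003), region 3 V1rc17 (chr6:57869176-57961876) and region 4 AK027905 (chr6:101550819-101845446). Region 5 held Rad52 and Wnk1 (chr6:119798964-119874775) and region 6 genes from Cecr5 over Slc25a18 and Bid to Usp18 (chr6:120475914-121211128). Region 7 held the natural killer receptor genes Klri2, Klra17 and Klra22 (chr6:129676112-130261266), and region 8 Etv6, Bcl2l14, Lrp6 and Mansc1 (chr6:133064473-134580042).

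In these regions the mice differed. In 6 of the 8 regions all 5 HCC were nearer to the liver of their own mouse than to the other livers, and in regions 2 and 6 this held for 3 HCC. Livers 2 and 3 lay close together in region 1, at 0.31 and 0.36, and in region 4, at 0.318 and 0.312. For HCC 3, HCC 4 and HCC 5, nearness in these regions thus rests on small gaps. Region 8, relative to the Chr6 median, was at -0.50 in HCC 1, -0.54 in HCC 2 and -0.39 in liver 1, all of mouse 3151. It was at 0.26 in HCC 3 and 0.22 in liver 2, and at -0.15 in HCC 4, 0.011 in HCC 5 and -0.021 in liver 3. In region 7 HCC 4, HCC 5 and liver 3 of mouse 4033 were lowest, at -0.70, -0.62 and -0.65. The tissues of mouse 3151 were at -0.39, -0.45 and -0.39, and those of mouse 3760 at -0.0075 and 0.024. Region 6 set mouse 3151, at 0.0027, 0.091 and 0.061, apart from the other 5 tissues, at -0.38 to -0.25. Region 3 was at -0.24, -0.19 and -0.17 in mouse 3151, 0.030 and 0.090 in mouse 3760, and 0.25, 0.37 and 0.33 in mouse 4033.

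The regions rested on few probes. Over the livers, 17 of their probes ranged by at least 1 on the log2 scale, 1 to 4 in each region, and without these probes the region means lay between -0.29 and 0.17. The Etv6 probe, of a gene for an ETS transcription factor, was at -2.21, -2.23 and -2.10 in HCC 1, HCC 2 and liver 1. It was at 1.30 and 1.47 in HCC 3 and liver 2, and at -0.050, 0.028 and 0.15 in HCC 4, HCC 5 and liver 3. The Slc25a18 probe, of a gene for a mitochondrial glutamate carrier, was at 0.37, 0.50 and 0.43 in the tissues of mouse 3151 and between -1.83 and -1.43 in the other 5. The unnamed probe at position 57961817 in region 3 was at -1.40, -1.24 and -1.26 in mouse 3151, 0.23 and 0.13 in mouse 3760, and 1.44, 1.69 and 1.54 in mouse 4033.

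The second of the 2 AK027905 probes, at position 101731684, was below the Chr6 median in mouse 3151, at -0.58, -0.35 and -0.76, and above it in the other 5 tissues, at 0.88 to 1.05. The AK035031 probe was at -0.15, -0.083 and 0.035 in mouse 3151 and at 0.72 to 1.50 in the other 5 tissues. At the Klra22 probe liver 2 was at 0.069 and HCC 3 at -0.33, mouse 3151 between -1.19 and -0.62, and mouse 4033 between -1.70 and -1.55. In 11 of the 17 probes, 4 or 5 of the 5 HCC were nearest to the liver of their own mouse.

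Signal was well above background on all arrays in both dyes for 9 of the 17 probes. For the probe of AK122497 in region 6 the tissue signal was not well above background on 9 arrays, for that of Mansc1 on 10, for the unnamed probe at position 133228480 on 11, for that of AK135613 in region 2 on 8 and for that of Klri2 on 6. The reference signal was not well above background on 12 arrays for AK135613, on 9 for the unnamed probe, on 7 for Mansc1 and on 4 for the Scrn1 probe of region 2. Neither low nor high ratios of these probes, nor the means of regions that hold them, are exact. What these differences between mice rest on was not tested.

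In region 2 HCC 5 and liver 3 were at 0.43 and 0.46, HCC 4, of the same mouse, at 0.10, and the other 5 tissues between -0.049 and 0.082. These means rest on the probes of AK135613 and Scrn1 with dim reference signal, and without them region 2 was at 0.011 in HCC 5, 0.041 in liver 3 and -0.054 in HCC 4. After the liver of the same mouse was subtracted from each HCC, Chr6 was a single segment in HCC 1, HCC 2, HCC 3 and HCC 5. In HCC 4 alone a segment of 9 probes from AK135613 to Scrn1 and beyond (chr6:54212324-54527893) lay at -0.54 relative to the Chr6 median, a value that includes the same dim probes and is not exact.

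**Figure D5:**
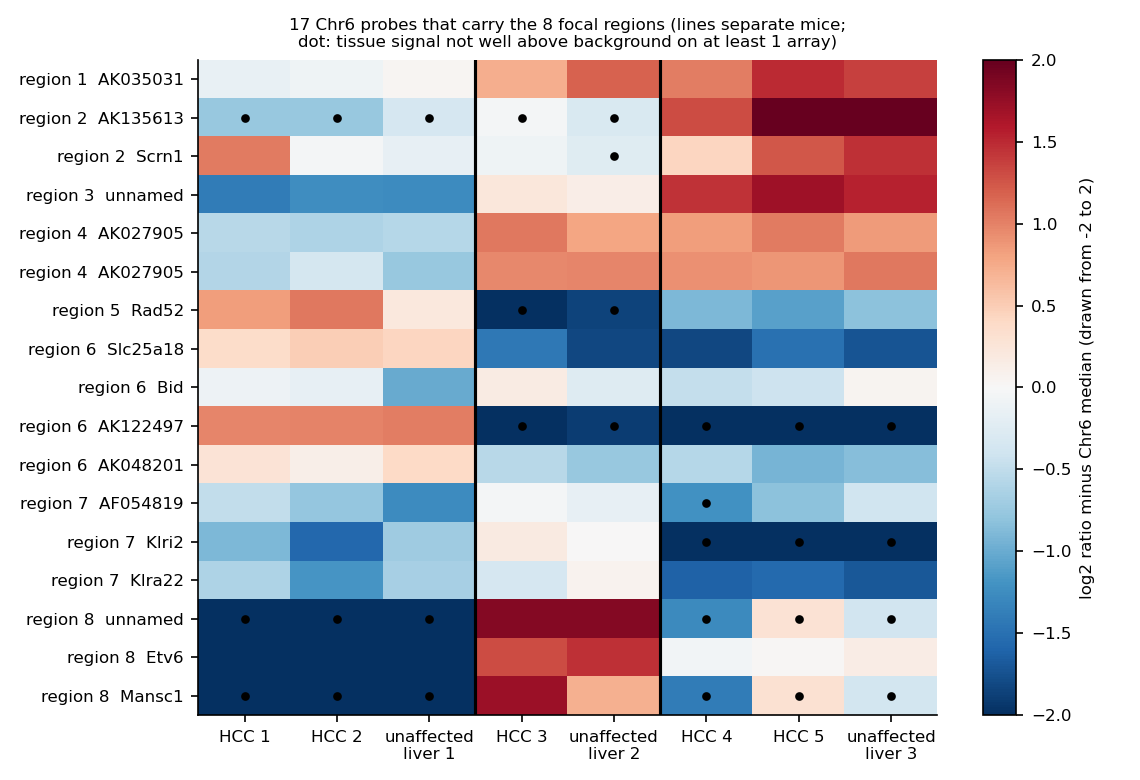
Log2 ratio minus the Chr6 median of the tissue (colour, drawn from -2 to 2) of the 17 Chr6 probes of the 8 regions that ranged by at least 1 over the livers (rows) in the 8 tissues (columns, with lines between mice). Dots mark tissue signal not well above background on at least 1 array. The rows were chosen for a difference between livers, so a change of colour between mice is given by that choice, while within a mouse HCC and liver can be compared, as for Etv6 with -2.21 and -2.23 in HCC 1 and HCC 2 and -2.10 in liver 1.

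The same was then counted over all of Chr6, the regions included. There, 41 probes, 1.71%, ranged by at least 1 over the 3 livers, and 17 of them were the region probes above. Of the autosomal probes 1.18% did so, and the median range was 0.158 on Chr6 and 0.16 on the autosomes. In 23 of the 41, 4 or 5 HCC were nearest to the liver of their own mouse, and 11 of these 23 were region probes. In 11 of the 41 the tissue signal was not well above background on at least 1 array. The range of the Mad2l1 probe over the livers, 0.63, ranked 92 of 2394. Of the genes with at least 2 probes, AK135613, AK027905, Mansc1, Klri2, Rad52, Gprc5d, Pyroxd1, Etv6, AK035031 and Ccdc129 ranged most over the livers. The order is not exact, since AK135613, Mansc1, Klri2, Rad52 and Ccdc129 each had a probe whose tissue signal was not well above background in at least 1 liver. Of the others, AK027905 ranged by 1.61 and AK035031 by 0.72.

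Probe values relative to the Chr6 median correlated across the 2394 probes with r from 0.31 to 0.70 (median 0.48) in the 7 pairs of tissues of 1 mouse and from -0.34 to 0.38 (median 0.040) in the 21 pairs of different mice. Without the 41 probes the ranges were 0.032 to 0.33 (median 0.22) and -0.25 to 0.32 (median 0.13). Tissues of a mouse share its germline and the sex of the reference, and some pairs a slide, and probes are not independent replicates. The GC content of the probes correlated with these values with r from -0.074 to 0.12 over the 8 tissues.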

How the data were processed

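Genomic DNA of 8 tissues was measured on 15 two-colour arrays. Per the file headers, the intensity values of the scanner files were background-subtracted, detrended and dye-normalised with Agilent Feature Extraction 9.1.3.1. In the series matrix, the deposited log10 ratios were those of the scanner files at 100% of non-control spots (within 1e-05), with the opposite sign where dyes were swapped. The log2 ratio of tissue over reference was computed from the deposited intensities, without control spots and outlier marks. Spots of a probe were averaged, each array was centred on its autosomal median with no loess, and both orientations of a DNA were averaged to 1 replicate. Arrays were scanned as 4 slides on 2 days. Signal over background was 3.72 to 7.95, and on an array 0.191% to 2.31% of spots did not rise well above background. The number of tissues limits the precision.

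HCC and unaffected liver were compared with limma 3.58.1 in R 4.3.3 (lmFit and eBayes, Benjamini-Hochberg adjustment, threshold 0.05) over all autosomes, 10 Mb windows with at least 20 probes, gene names or probes, and single values by exact permutation of 56 splits. Tissues are the replicates, so p-values measure the spread between tissues of only 3 mice. Tissues of one animal pair the groups, and the correlations of their probes are given in the report. Segments came from optimal partitioning (penalty 3, at least 5 probes). A region was a segment that held less than one part in 2 of the Chr6 probes and lay at least 0.3 from the Chr6 median, merged over tissues. Python 3.11.15 with numpy 2.4.6, pandas 2.3.3, scipy 1.17.1, numba 0.67.0 and matplotlib 3.10.9 was used, and the steps were tested on simulated data.

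The members, gene lists and tests were chosen with earlier results of these data known. Named genes were Mad2l1 and Met with their nearest probes, the list members, the genes of the regions, and the 10 genes with at least 2 probes of largest difference or of largest range over livers, both relative to the Chr6 median. Gene names came from the array design, and of them 711 matched a current and 133 an older symbol in a table for GRCm38.p6 that served for names alone. Further tissues counted in the series text are not analysed here. A few named genes are not reported here and still count in the list totals.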

Additional observations from a re-analysis of the deposited data

Results flagged for a closer look

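In 44 sets of 5 HCC values, a value far from the other 4 was sought, which chance gives in about 1 of 20 sets, or 2.2 here, and 2 were found. The absolute Chr6 level of HCC 3, 0.0285, lay apart below the other 4 HCC, with a gap of 0.801 of the whole range. HCC 5 had 9 breakpoints on Chr6, more than the other 4, with a gap of 0.714 of the range. HCC 5 was also the HCC with the lowest probe noise. With noise made equal across tissues it had 6 breakpoints, against 2, 2, 2 and 4 in HCC 1 to HCC 4.

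In 2 of 44 results every tumour of mouse 3151 departed from its own liver in one direction and every tumour of mice 3760 and 4033 in the other. For breakpoints on Chr6 the departures were 1 and 2 in mouse 3151 and -6, -11 and -6 in the others, a difference of 9.17 (exact permutation test, p = 0.1). With noise made equal they were 1 and 1 against 2, -2 and 0, so that the directions were no longer opposite. For the level of Chr12 minus that of Chr6 they were 0.12 and 0.18 against -0.20, -0.19 and -0.031, a difference of 0.288 (exact permutation test, p = 0.1). The smallest p that 2 against 3 tumours allow is 0.1. Mouse, sex, age, Trp53 genotype and reference cannot be told apart here.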

How the results depend on the processing

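Over 206 alternative settings of 12 results, 189 left the result the same. For a difference this means the same direction and side of the threshold, and for a count a number near the one reported. No Chr6 probe, gene or window was called under any setting, nor was the difference in Chr6 level. The latter, 0.11 as reported, was 0.058 to 0.22 when 1 tissue was left out. With the slide as a block, to which HCC 1 and HCC 2 did not contribute, it was -0.014. The difference in absolute Chr6 level passed the threshold with scan day as a block (0.197, exact permutation p = 0.0417, the smallest p that block allows). It passed with the median of the probes in place of the mean (0.24, exact permutation p = 0.0357). It also passed without HCC 3 and without liver 1, where the omission took away the only overlap between the groups. When 1 tissue was left out it ranged from 0.20 to 0.28. With the mouse as a block, which pairs the tissues of one animal, the difference in absolute Chr6 level was 0.199 (exact permutation p = 0.0556, the smallest possible). No exact permutation test could therefore pass the threshold with this block, and it cannot show whether pairing matters to those results. The limma results could have changed with it, and none was called. Met relative to its neighbours turned to -0.033 on forward arrays alone, and ran from 0.012 to 0.072 when 1 tissue was left out. Distal minus proximal turned to 0.00081 with the mouse as a block and 0.0011 with scan day as a block, and ran from -0.012 to 0.0062 when 1 tissue was left out. Breakpoints turned to 1.73 on forward arrays alone and 0.87 with noise made equal, and ran from -7.1 to -0.6. Chr12 minus Chr6 ran from -0.078 to 0.045, Chr15 minus Chr6 from 0.23 to 0.45 and Mad2l1 relative to its neighbours from -0.95 to -0.35. At a cut-off of 0.5, 0 HCC passed for Chr6, though HCC 5 lay at -0.58 on arrays centred on the mode. At 0.3, 2 passed with normexp background correction, on the mode and on forward arrays alone. Of the alternatives chosen after the data were seen, 3 passed relative to the own liver and 4 by the median of the probes, and Mad2l1 relative to the Chr6 median gave a difference of -0.62. Signal near background limits the ratios of the dim probes named in the report.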
